A study of Neurospora crassa OR74A with 12 samples.

Results

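The comparison described here is that of the upf-1 knockout with its WT strain in mycelium that received no H2O2. The titles of the samples state strain and treatment, and the comparison took 6 of the 12 libraries of the series, 3 from untreated WT and 3 from untreated upf-1KO. Neurospora crassa is a filamentous fungus, and all 12 samples are labelled as hyphal mycelium of OR74A, the strain of the reference genome. The methods of the study name as WT 87-3, which carries the bd allele of ras-1 and mating type a, and also a strain without bd. They do not state which was sequenced. According to them, the upf-1KO strain had the upf-1 gene replaced by a hygromycin resistance cassette (hph). It was made in a ku70RIP host that also carries bd and mating type a. The methods also state that the strains used share the bd background. Conidia were grown in minimal medium with glucose in constant light, and disks of the mycelial mat were then shaken in fresh medium, with no added agent in these 6 libraries. RNA came from independent triplicate pools of each strain, and p-values measure the spread between these pools. A pool of mycelium holds several kinds of hyphal cell, so that fewer cells of a type and less RNA per cell cannot be told apart.

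UPF-1 is an RNA helicase and the central factor of nonsense-mediated mRNA decay (NMD), the pathway that removes transcripts on which a ribosome stops too early. Besides faulty transcripts, NMD acts on normal ones, among them mRNAs with an upstream open reading frame (uORF), an intron downstream of the stop codon or a long 3' untranslated region. UPF-2 and UPF-3 bind UPF-1 and link it to the exon junction complex that splicing leaves on the mRNA.

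Each library had 6727198 to 7703271 reads on genes, and the 10 most abundant genes took 10.1% to 12.2% of them. The rank correlation of counts over genes was 0.992 to 0.995 within a strain and 0.938 to 0.944 between the strains. Same-strain libraries differed by more than sampling noise (chi-square per degree of freedom of 2.28 to 13.6), and the highest values, 13.6 and 12.2, were those of WT replicate 2 against the other WT libraries. Without WT replicate 2, 984 genes were called higher and 187 lower by the rule given further on, against 985 and 164 with it. The markers of conidia, the asexual spores, had a summed level of 11573 to 14129 CPM (counts scaled to a common library total) in WT and 11738 to 12426 in upf-1KO, with overlapping ranges. These sums were mostly those of the gene eas, at 1.12% to 1.37% of all reads in WT and 1.1% to 1.18% in upf-1KO. They say little about the other markers. Of the 11 conidia markers 9 were tested, 3 of them called higher (33.3%, against 12.8% of all tested genes) and 1 lower (11.1%, against 2.12%). At any fold change 5 of the 9 were higher and 3 lower, with a median log2 fold change of 0.62. The markers of growing mycelium summed to 8622 to 9058 in WT and 7044 to 7429 in upf-1KO. Those of sexual development summed to 212 to 215 in WT and 313 to 328 in upf-1KO. In that list the genes matA-1, matA-2 and matA-3 of the opposite mating type were at 0 in all 6 libraries, and of its 4 tested genes only app (NCU04533) was called higher, a call lost in the fit of all 12 libraries. The part of these marker levels in the results was not tested.

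The deleted gene was looked at first, as a check of the labels. On chromosome V (5327537 to 5332820 of the NC12 build), upf-1 (NCU04242) had 741, 748 and 622 reads in WT replicates 1, 2 and 3, and 232, 232 and 236 in the upf-1KO replicates. All 3 upf-1KO libraries lay far below all 3 WT libraries, yet none was at 0. Its log2 fold change was -1.63 (standard error 0.08, edgeR adjusted p = 6.58e-11), which left 32.4% of the WT level on the locus, and the table gives no coverage along the gene. The genes on either side were higher by small amounts. NCU04241 had a log2 fold change of 0.27 (adjusted p = 0.00358) and NCU04243 one of 0.38 (adjusted p = 0.000307).

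A second locus also separated the strains. The gene mus-51 (NCU08290, chromosome IV, 2520412 to 2522837) encodes Ku70, which joins broken DNA ends, and it is the gene that was mutated in the knockout host. It had 188, 220 and 205 reads in the WT replicates and 0, 0 and 0 in the upf-1KO replicates. Against a floor of 3 counts per library it was at least 70.0-fold lower in upf-1KO. With H2O2 it had 67, 72 and 107 reads in WT and 4, 0 and 3 in upf-1KO. Both its neighbours were read in every library, NCU08291 at 1384 to 1781 reads and dmm-2 (NCU08289) at 312 to 499 in the untreated libraries. The loss of upf-1 and the loss of mus-51 reads therefore mark the same 3 libraries and cannot be told apart in any result below. The partner of Ku70, mus-52 (NCU00077), had a log2 fold change of 0.20 (adjusted p = 0.0916), and bd (NCU08823) one of 0.08 (adjusted p = 0.287).

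**Figure D1:**
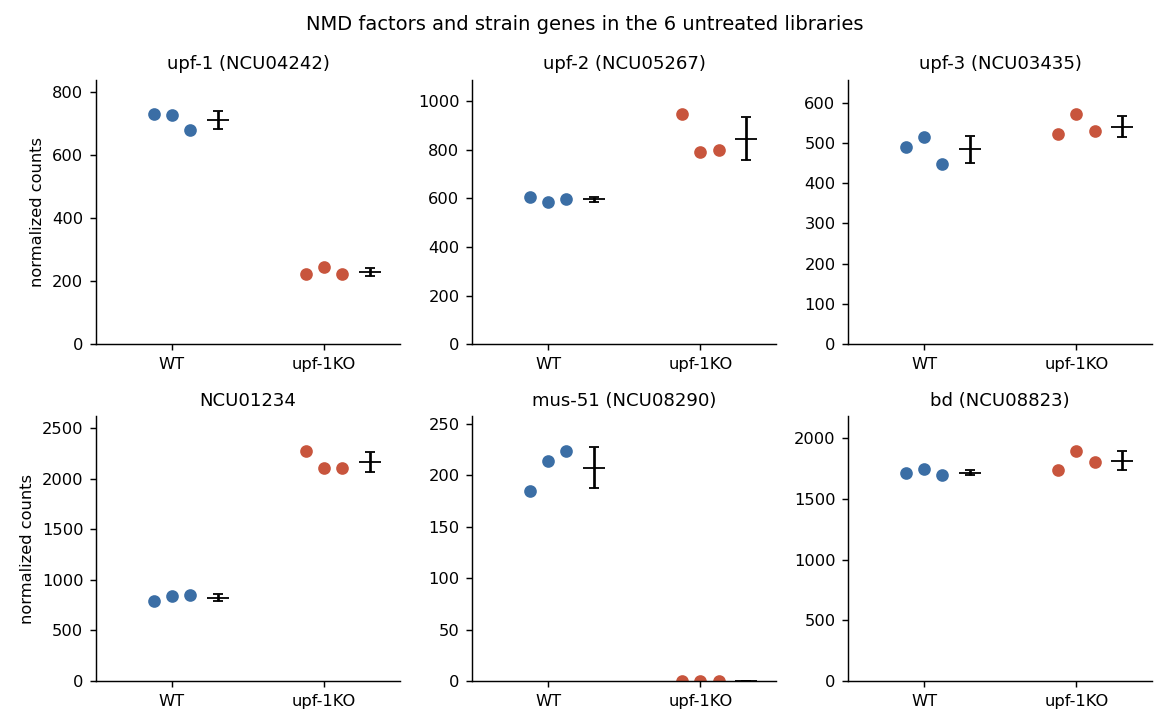
Normalized counts (y axis) of NMD factors and strain genes in the 3 WT libraries (blue) and the 3 upf-1KO libraries (red), with the mean and standard deviation as black bars. upf-1 was at 32.4% of its WT level, mus-51 was at 0 in every upf-1KO library, and NCU01234 was 2.62-fold higher.

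The partners of UPF-1 did not follow it down. upf-2 (NCU05267) had 615, 601 and 546 reads in WT and 979, 745 and 846 in upf-1KO. The strains did not overlap, as in 4758 of the 7720 tested genes, and it rose (log2 fold change 0.50, standard error 0.08, adjusted p = 4.64e-05). upf-3 (NCU03435) had 496, 529 and 410 reads in WT and 540, 540 and 560 in upf-1KO (log2 fold change 0.16, standard error 0.08, adjusted p = 0.0968). Without WT replicate 2 it passed the adjusted p, with a log2 fold change of 0.20. NCU01234 (chromosome V, 3308067 to 3310171), which the study's gene table describes as a eukaryotic initiation factor of the 4A family, had 798, 866 and 775 reads in WT and 2358, 1993 and 2229 in upf-1KO. It rose 2.62-fold (log2 fold change 1.39, standard error 0.06, adjusted p = 3.48e-11), and every upf-1KO library was above every WT library.

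Of the 7720 genes tested, 985 were called higher in upf-1KO (12.8%) and 164 were called lower (2.12%). A call needed a Benjamini-Hochberg adjusted p under 0.05 in edgeR's quasi-likelihood test and a change of at least 2-fold. The calls were therefore uneven in direction, with 85.7% of them higher, while the median log2 fold change over all tested genes was -0.01. At any fold change, 2293 genes were higher (29.7%) and 2083 lower (27.0%) at the same adjusted p. These last counts were 821 and 371 when all 12 libraries were fitted together, where the spread of the H2O2 libraries enters the test, and the counts with the 2-fold limit were then 683 and 162. In that fit, 677 of the 985 and 126 of the 164 were called again in the same direction. A test against a 2-fold change itself kept 552 higher and 78 lower genes. The strains did not overlap in 4758 of the 7720 genes, among them 978 of the 985 called higher and 156 of the 164 called lower. Most named genes that changed by less than 2-fold, upf-2 among them, did not pass the adjusted p in the fit of all 12 libraries. With 3 libraries a strain, the smallest two-sided p of an exact permutation test on 1 gene is 0.1.

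The called genes that rose were mostly weakly expressed ones in WT. Their median level per transcript length was 2.96 FPKM in WT, against 11.95 for the genes called lower and 16.8 for all tested genes. In upf-1KO the median was 11.135 FPKM for the genes called higher, 3.9958 for those called lower and 18.412 for all tested genes. The order of the called groups was thus reversed, and part of the contrast in WT follows from the direction of the call itself. Together the genes called higher took 3.25% to 3.75% of the reads in the WT libraries and 9.39% to 9.64% in the upf-1KO libraries. The genes called lower went from 2.30% to 2.44% of the reads in WT to 0.876% to 0.935% in upf-1KO. With the tested genes split by mean normalized count into equal bins of 772, the share called higher was 32.3% in the lowest bin and 3.63% in the highest, while the share called lower was 4.79% and 1.94%. The share called higher was also larger for short genes, with 17.9% among the 1931 shortest and 6.79% among the 1928 longest. By chromosome it ran from 10.4% on V to 17.6% on VII. Of the 1060 tested genes with a symbol 8.3% were called higher, and of the 6660 without one 13.5%. Level, length, position and having a symbol were not separated from each other here. Of the called genes, 273 rose at least 4-fold and 58 at least 8-fold, and 38 and 18 fell by as much.

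**Figure D2:**
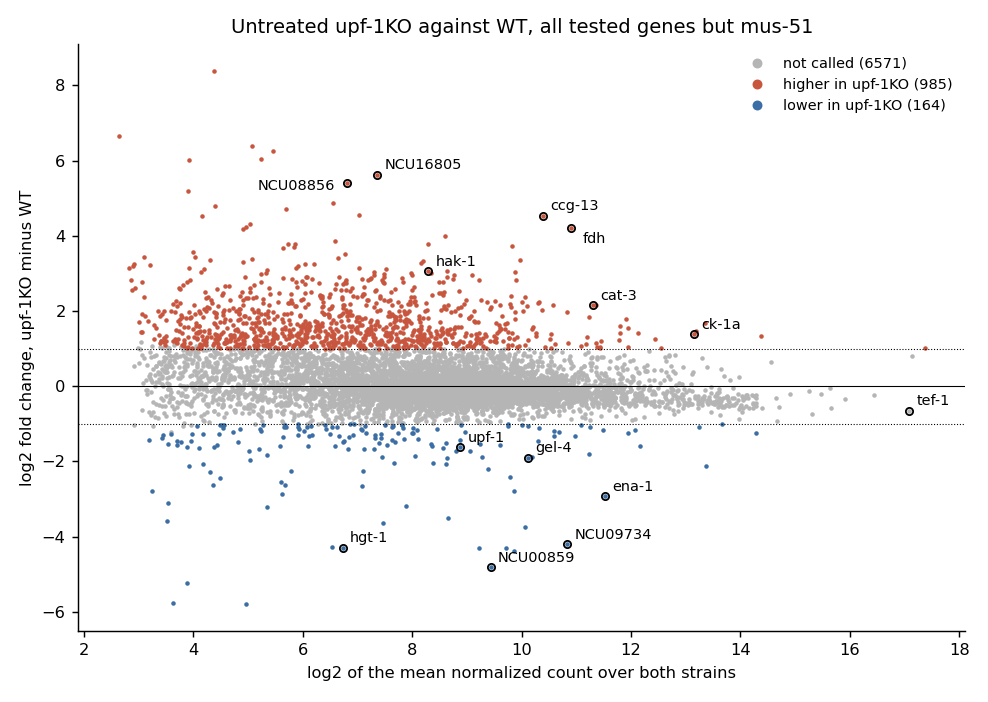
Log2 fold change of upf-1KO minus WT (y axis) against the log2 mean normalized count (x axis) for the tested genes, with dotted lines at 2-fold and mus-51 left out. The 985 genes called higher (red) are spread over the low and middle levels, and the 164 called lower (blue) are fewer.

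**Figure D3:**
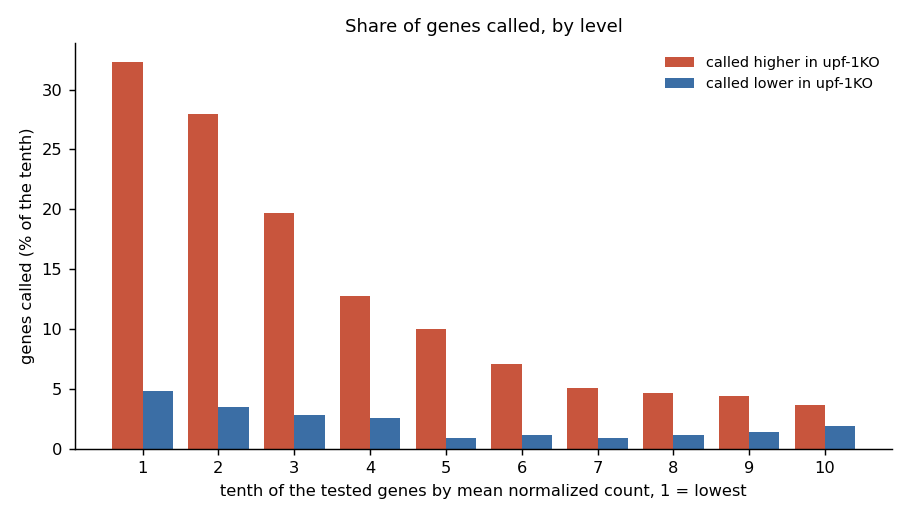
Share of genes called higher (red) and lower (blue) in bins of 772 tested genes, ordered by mean normalized count. The share called higher is 32.3% in the lowest bin and 3.63% in the highest.

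The 15 largest increases held 8 genes with a description or symbol and 7 described only as hypothetical proteins. NCU08856 (chromosome V, 112883 to 115108), described as a myo-inositol oxygenase, had 6, 2 and 7 reads in WT and 211, 214 and 245 in upf-1KO, a 42.4-fold increase (log2 fold change 5.41, standard error 0.26, adjusted p = 4.31e-11). The formate dehydrogenase gene fdh (NCU03813, chromosome V, 2492005 to 2494322), whose enzyme oxidises formate to CO2, had 187, 205 and 196 reads in WT and 4063, 3353 and 3690 in upf-1KO. This was an 18.4-fold increase (log2 fold change 4.20, standard error 0.08, adjusted p = 3.67e-15), and it brought fdh from 16.4 to 317 FPKM. NCU07232, described as an hsp30-like protein, the kind of small heat shock protein that holds unfolded proteins, went from 142, 108 and 122 reads to 1698, 1612 and 1803 (log2 fold change 3.74, standard error 0.09). Spread among replicates was small beside these changes, and in each of the 15 largest increases the lowest upf-1KO library was above the highest WT library, which the rule for naming them required.

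Others of the 15 were an alpha-L-arabinofuranosidase, NCU02343, which releases arabinose from plant cell walls, at 49, 39 and 37 reads in WT and 548, 573 and 649 in upf-1KO. The cellulase family gene gh7-2 (NCU04854) had 32, 48 and 32 reads in WT and 354, 327 and 320 in upf-1KO. NCU06327, described as a benzoate 4-monooxygenase cytochrome P450, had 40, 66 and 50 in WT and 523, 551 and 547 in upf-1KO. Their log2 fold changes were 3.78, 3.12 and 3.34. Of the rest, NCU16805, NCU06156, NCU08351, NCU06589, NCU00868, NCU08775 and NCU09641 are described only as hypothetical proteins, and their log2 fold changes were between 3.15 and 5.62. NCU08351 overlaps NCU08350 on the map, and the strand of the reads is not known, so its value is uncertain. NCU05143 (rds1) had a log2 fold change of 3.40, and ccg-13 (NCU08907), first found as a clock-controlled gene, one of 4.53.

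Genes that were read in only 1 strain were few. By the rule of at most 3 reads in every library of a strain and at least 30 in every library of the other, 5 genes were read in upf-1KO and 2 in WT. NCU05005, described as a protein with an HHE domain, had 1, 2 and 0 reads in WT and 103, 81 and 79 in upf-1KO, at least 28.4-fold higher. NCU05628 had 1, 1 and 1 reads in WT and 70, 61 and 96 in upf-1KO, at least 24.4-fold higher. NCU00947, NCU02061 and NCU04490 were at least 22.0-fold, 13.7-fold and 13.3-fold higher. Apart from mus-51, the gene read in WT was NCU06964, with 60, 66 and 56 reads there and 3, 0 and 0 in upf-1KO, at least 20.7-fold lower.

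**Figure D4:**
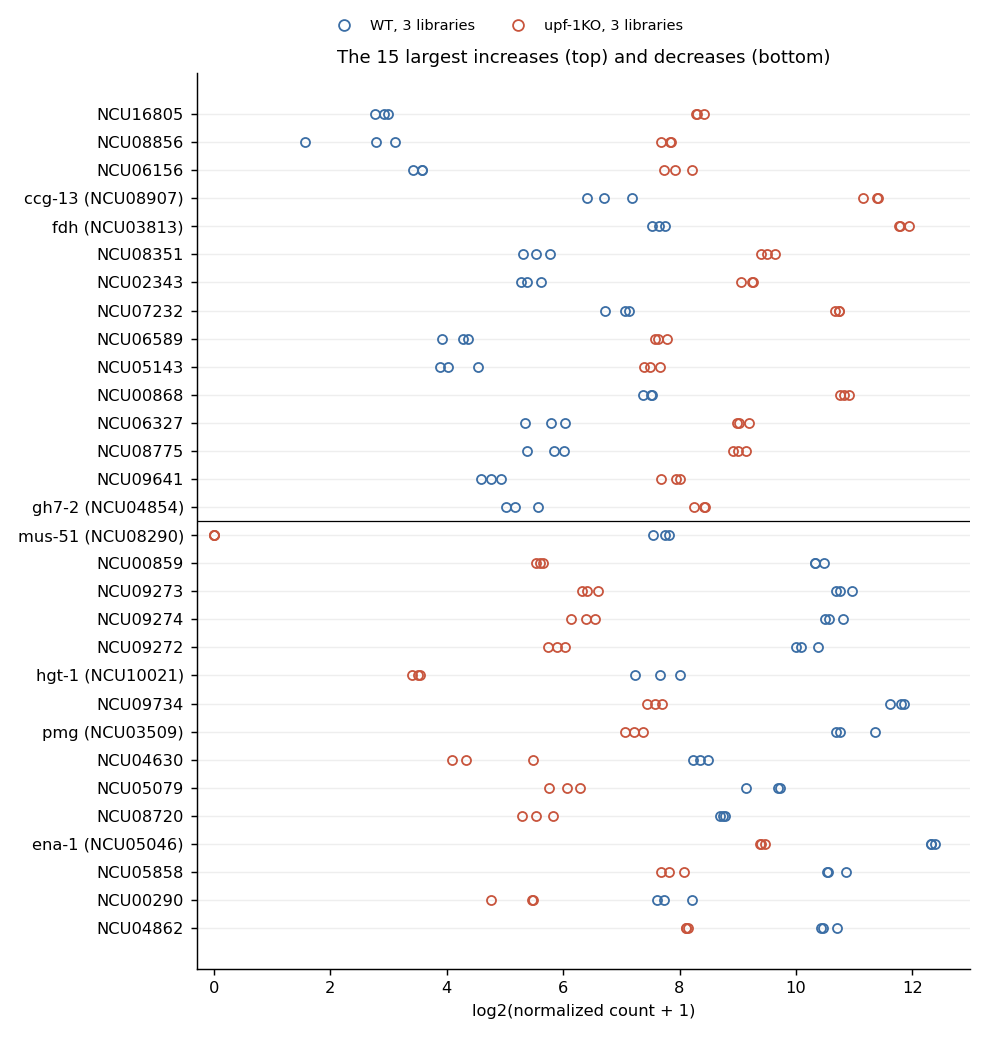
Log2 of the normalized count plus 1 in each library for the 15 largest increases (above the line) and the 15 largest decreases (below) among the calls, taken where the mean normalized count reached 100 and the strains did not overlap. The WT libraries (blue) and the upf-1KO libraries (red) form separate groups in each row, as the choice of genes required, and mus-51 is at 0 in upf-1KO.

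The largest decreases included genes of glucose uptake and sodium export. The high-affinity glucose transporter gene hgt-1 (NCU10021, chromosome VII, 1305454 to 1307833) had 151, 263 and 184 reads in WT and 11, 9 and 11 in upf-1KO. WT replicate 2 was the highest, and all upf-1KO libraries were close to each other (log2 fold change -4.29, standard error 0.26, adjusted p = 1.07e-09). The sodium pump gene ena-1 (NCU05046, chromosome VI, 3938154 to 3943089), a P-type ATPase of the plasma membrane, had 5203, 5537 and 4697 reads in WT and 693, 667 and 717 in upf-1KO (log2 fold change -2.93, standard error 0.06, adjusted p = 4.69e-15). It went from 145 to 20.1 FPKM. NCU09734, which has no symbol, had 3196, 3803 and 3273 reads in WT and 198, 195 and 183 in upf-1KO, a log2 fold change of -4.19 (standard error 0.09). Of the 15 largest decreases, NCU00859 fell furthest after mus-51, with a log2 fold change of -4.82. The remaining members, pmg (NCU03509), NCU04630, NCU05079, NCU08720, NCU05858, NCU00290 and NCU04862, had log2 fold changes between -3.75 and -2.42.

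Several members of this group stood next to each other on chromosome VII. NCU09274, NCU09273 and NCU09272 had 933 to 2045 reads in WT and 54 to 101 in upf-1KO. Their log2 fold changes were -4.29, -4.37 and -4.29. The next tested gene, NCU09271, fell from 644, 640 and 576 reads to 159, 170 and 180 (log2 fold change -1.91, standard error 0.09). These 4 genes, between 114609 and 129394, formed the only run of at least 4 neighbouring tested genes that were all called lower. On chromosome IV, NCU04862, the polyketide synthase gene pks-3 (NCU04865) and the transcription factor gene ada-6 (NCU04866) are also neighbours among tested genes, and this stretch was singled out after its values were seen. pks-3 had 1015, 1339 and 897 reads in WT and 267, 197 and 259 in upf-1KO (log2 fold change -2.20, standard error 0.11), and ada-6 had 817, 888 and 728 and then 274, 217 and 267 (log2 fold change -1.72, standard error 0.08).

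Runs of genes called higher numbered 16, each of 4 to 6 neighbouring tested genes. In the fit of all 12 libraries, every member kept its call in only 7 of the 16, and the run of genes called lower was kept whole. Leaving out 1 library left 12 to 15 of the 16 whole. The longest lay on chromosome VII between 4088313 and 4116555, from NCU05861 to NCU05870, where 6 genes described as hypothetical proteins had log2 fold changes of 1.01 to 2.86. Its members NCU05864 and NCU05865 were not called in the fit of all 12 libraries. Nearby, between 4155062 and 4172944, NCU05882, described as a cellulase, NCU05885, a flavin-binding monooxygenase, NCU05887, an oxidoreductase, and NCU05888 rose with log2 fold changes of 1.32 to 3.19. The first and the second of these overlap other genes. On chromosome I, between 7723694 and 7732287, the L-arabinitol 4-dehydrogenase gene NCU00643, an enzyme of arabinose use, and the beta-galactosidase family gene gh35-1 (NCU00642) stood side by side. They had log2 fold changes of 2.37 and 1.42. NCU16805 and NCU04490, named above, were also neighbours, in a run on chromosome IV between 3189039 and 3197236. The run that holds NCU01234 also held the aldose reductase gene NCU01233, which went from 182, 170 and 177 reads to 820, 715 and 808 (log2 fold change 2.11). In that run NCU01231 was not called in the fit of all 12 libraries, nor without WT replicate 1, WT replicate 2 or upf-1KO replicate 2. How often such runs would arise by position alone was not tested.

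Enzymes that break down polysaccharides formed the list with the largest number of called genes. Of 65 tested glycosyl hydrolase and related genes, 25 were called higher, which is 38.5% against 12.8% of all tested genes. In the other direction 4 were called lower, which is 6.15% against 2.12% of all tested genes. At any fold change, 35 were higher and 10 lower (53.8% and 15.4%, against 29.7% and 27.0% of all tested genes), and 20 did not pass the adjusted p. The median log2 fold change of the list was 0.69, against -0.01 over all tested genes. Genes of low level were called higher more often in general, and the part of expression level in this count was not tested.

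Members of that list that rose included genes for cellulose, pectin and chitin. The pectin-degrading gene gh28-1 (NCU02369) had 43, 66 and 61 reads in WT and 393, 370 and 443 in upf-1KO (log2 fold change 2.78, standard error 0.14, adjusted p = 8.49e-11). It overlaps NCU02368, so that reads of the pair may be shared. The cellulase gene gh7-1 (NCU05057) had 37, 23 and 41 reads in WT and 202, 194 and 209 in upf-1KO (log2 fold change 2.54, standard error 0.19). Among enzymes of chitin, the polymer of the fungal wall, gh18-7 (NCU06020) went from 311, 227 and 246 reads to 963, 808 and 869 (log2 fold change 1.71). The strains did not overlap in any of these, as in 978 of the 985 genes called higher. The cellobiohydrolase gene cbh-1 (NCU07340) had 58, 70 and 85 reads in WT and 164, 127 and 196 in upf-1KO, and its level of 7.51 FPKM in upf-1KO stayed low.

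In the other direction stood gla-1 (NCU01517), the gene of the glucoamylase that cuts glucose from starch. It had 1556, 2194 and 1701 reads in WT and 728, 613 and 710 in upf-1KO, and it fell by 1.45 on the log2 scale (standard error 0.10, adjusted p = 2.66e-09). gh61-2 (NCU07760), gh76-5 (NCU09937) and gh47-3 (NCU01059) were the other members called lower, with log2 fold changes of -1.31, -1.30 and -1.02. Of the transporters and regulators of carbohydrate use, the cellodextrin transporter gene cdt-2 (NCU08114) rose from 3, 3 and 5 reads to 24, 28 and 30. Its relative cdt-1 (NCU00801) had a log2 fold change of 0.89. The regulator genes showed smaller differences. The cellulase activators clr-1, clr-2 and xlr-1 had log2 fold changes of 0.30 (adjusted p = 0.033), 0.79 (adjusted p = 0.21) and 0.22 (adjusted p = 0.70), and the glucose repressor cre-1 one of 0.08 (adjusted p = 0.28). The value of clr-1 lost its adjusted p without WT replicate 3 (0.19) and without any 1 of the upf-1KO replicates 1, 2 and 3 (0.33, 0.31 and 0.26).

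**Figure D5:**
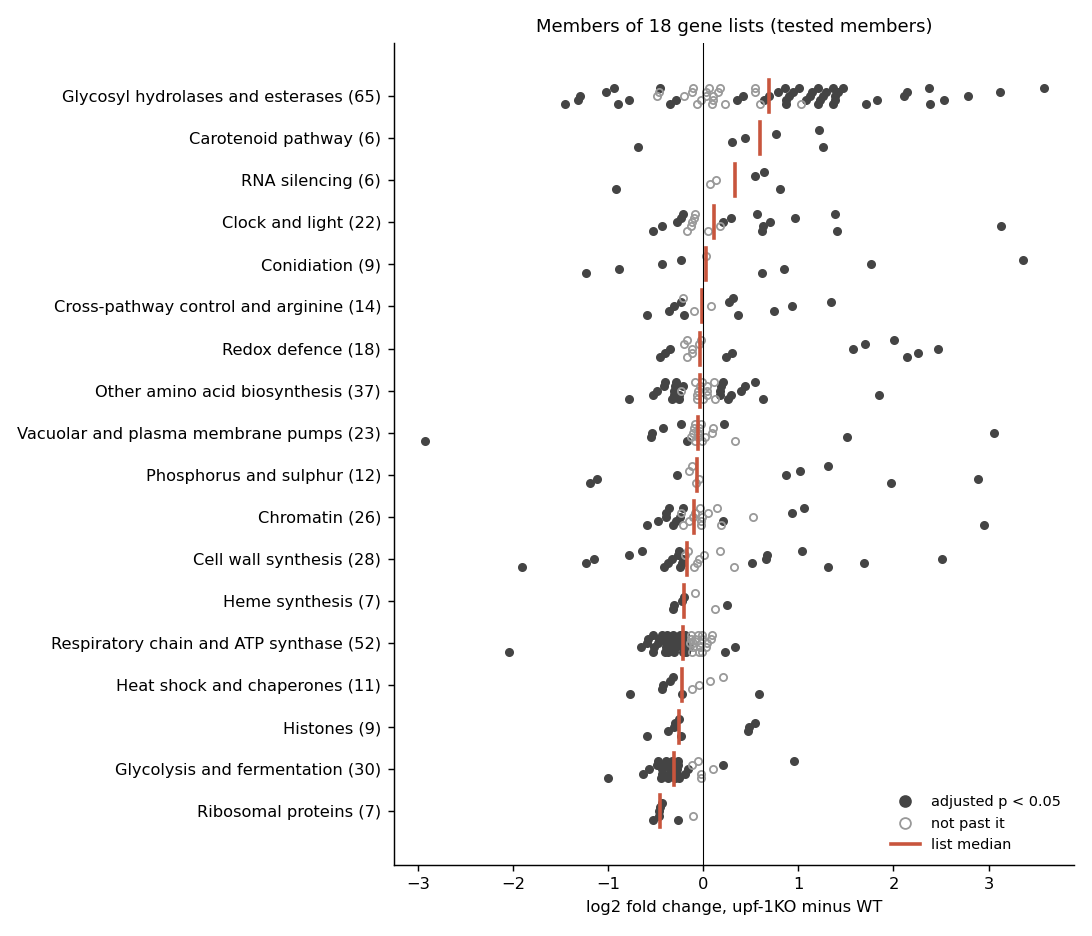
Log2 fold change of upf-1KO minus WT (x axis) for the tested members of 18 of the 37 gene lists, with the number tested in brackets. Filled points passed an adjusted p under 0.05, open points did not, and red bars are list medians, from 0.69 for glycosyl hydrolases to -0.46 for ribosomal proteins.

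Central carbon metabolism and protein synthesis were lower by small amounts. Abundant genes were somewhat lower in general. The median log2 fold change was -0.20 in the 772 tested genes of highest mean normalized count, and -0.09 in the 1060 with a symbol. The part of expression level in the lists of this and the next paragraph was not tested. Of 30 tested genes of glycolysis, the citric acid cycle and fermentation, 23 were lower (76.7%, against 27.0% of all tested genes) and 2 higher at any fold change, with a median log2 fold change of -0.31. Only adh-1 (NCU01754), an alcohol dehydrogenase gene of ethanol fermentation, was called lower, from 17967, 13419 and 19490 reads to 9694, 8093 and 8448 (log2 fold change -1.01, standard error 0.12, adjusted p = 3.31e-06). It overlaps NCU01753, and the call was lost in the fit of all 12 libraries. The enolase gene emp-7 (NCU10042) had 68010, 47493 and 64899 reads in WT and 44159, 38715 and 42827 in upf-1KO, and it fell by 0.57 on the log2 scale. WT replicate 2 was the lowest WT library for both. In the glyoxylate list, acu-6 (NCU09873), the gene of the gluconeogenic enzyme phosphoenolpyruvate carboxykinase, rose from 245, 210 and 249 reads to 809, 595 and 759 (log2 fold change 1.57, standard error 0.11). Of the 6 tested genes of that list, 4 were higher at any fold change (66.7%, against 29.7% of all tested genes).

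Of 7 tested ribosomal protein genes, 6 were lower (85.7%, against 27.0% of all tested genes) and none was higher, with a median log2 fold change of -0.46. The elongation factor gene tef-1 (NCU02003), which carries aminoacyl-tRNA to the ribosome and ranked first by FPKM in WT, had 171686, 169017 and 160916 reads in WT and 120709, 98888 and 109667 in upf-1KO (log2 fold change -0.65, standard error 0.07, adjusted p = 3.97e-07). Of 52 tested genes of the respiratory chain and ATP synthase, 32 were lower and 2 higher at any fold change, with a median of -0.22. The shares were 61.5% lower and 3.85% higher, against 27.0% and 29.7% of all tested genes. Most of these decreases were well under 2-fold. The exception was ndi-1 (NCU00153), the gene of an internal alternative NADH dehydrogenase of mitochondria, with 318, 307 and 335 reads in WT and 97, 80 and 63 in upf-1KO (log2 fold change -2.04, standard error 0.15, adjusted p = 8.64e-09). Scaling to library totals alone moved the median of all tested genes to 0.07, so decreases of this size are relative to the scaling used.

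Both tested alternative oxidase genes and the 4 catalase genes rose, while ndi-1 of the same alternative routes fell. The alternative oxidase gene aod-1 (NCU07953), which lets electrons bypass the cytochrome chain, had 457, 420 and 359 reads in WT and 1699, 1610 and 1795 in upf-1KO (log2 fold change 2.01, standard error 0.07, adjusted p = 1.31e-12). Its relative aod-3 (NCU04874) had 21, 13 and 16 reads in WT and 55, 52 and 61 in upf-1KO. Of 18 tested redox genes, 6 were called higher (33.3%, against 12.8% of all tested genes) and none lower, 3 were lower at any fold change and 7 did not pass the adjusted p. Besides the 2 oxidases, the 6 were the catalases. The catalase gene cat-4 (NCU05169) had 90, 115 and 121 reads in WT and 625, 615 and 614 in upf-1KO (log2 fold change 2.47, standard error 0.11, adjusted p = 3.40e-11). The catalase-peroxidase gene cat-2 (NCU05770) had 112, 85 and 73 reads and then 504, 398 and 428, the conidial catalase gene cat-1 (NCU08791) had 586, 553 and 623 and then 1977, 1614 and 1825, and the mycelial catalase gene cat-3 (NCU00355) had 892, 1070 and 795 and then 4352, 3854 and 4318. Their log2 fold changes were 2.26, 1.57 and 2.15, and only that of cat-2 lost its adjusted p in the fit of all 12 libraries. No overlap between strains occurred in these 6 genes, as in 978 of the 985 genes called higher, and the median over all 18 was -0.03. The text of the study names cat-1, cat-2 and cat-3, with cat-3 as its main subject, and does not name cat-4. Members of this list were chosen with earlier results of these data known, so its direction is not independent evidence. Of the 7 heme synthesis genes, which supply the cofactor of catalase, none was called, 1 was higher and 4 were lower at any fold change, and the median was -0.20. The shares were 14.3% higher and 57.1% lower, against 29.7% and 27.0% of all tested genes.

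Some transcripts known for an upstream reading frame or a long 3' end were examined singly. The arg-2 mRNA (NCU07732), which encodes a subunit of carbamoyl phosphate synthetase and has a uORF whose peptide stalls ribosomes, had 3607, 3677 and 3222 reads in WT and 7144, 6280 and 7172 in upf-1KO. It rose 1.91-fold (log2 fold change 0.93, standard error 0.06, adjusted p = 7.24e-10), just under the 2-fold limit. The casein kinase gene ck-1a (NCU00685), whose product phosphorylates the clock protein FRQ, had 5370, 4945 and 4668 reads and then 13588, 12313 and 14342 (log2 fold change 1.39, standard error 0.06, adjusted p = 1.60e-11). The transcription activator gene of amino acid synthesis, cpc-1 (NCU04050), went from 11290 to 12187 reads in WT to 28581 to 32878 in upf-1KO, a log2 fold change of 1.34. The acetyltransferase gene ngf-1 (NCU10847) had a log2 fold change of 0.94, and it overlaps NCU00943 and NCU16421. These 4 genes and upf-1, which was lower, form a list that was drawn up from such known features with results of these data in view, so it is not independent evidence.

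Genes of amino acid synthesis changed in both directions. Of 14 tested genes of cross-pathway control and arginine synthesis, 6 were higher and 5 lower at any fold change (42.9% and 35.7%, against 29.7% and 27.0% of all tested genes). Their median was -0.01, and cpc-1 was the 1 called. Of 37 other amino acid genes, 11 were higher and 13 lower (29.7% and 35.1%, near the shares of all tested genes). The gene called among them was met-5 (NCU07001), the homoserine acetyltransferase gene of methionine synthesis. It had 972, 1049 and 1049 reads in WT and 3999, 3481 and 3930 in upf-1KO (log2 fold change 1.85, standard error 0.07, adjusted p = 3.36e-12). The sulphur regulator gene cys-3 (NCU03536) rose as well, from 4125, 4046 and 3629 reads to 7965, 7727 and 8839 (log2 fold change 1.02, standard error 0.06), and it overlaps NCU03535. The sulphate permease gene cys-14 (NCU04433) had a log2 fold change of 0.87. Phosphatases and phosphate permeases went in opposite directions. The repressible phosphatase genes pho-2 (NCU01376) and pho-3 (NCU08643) rose, from 51, 57 and 51 reads to 458, 371 and 384 and from 16, 11 and 16 to 62, 54 and 59. The phosphate permease genes pho-4 (NCU09564) and pho-5 (NCU08325) fell by 1.19 and 1.12 on the log2 scale, from low counts, and neither passed the adjusted p in the fit of all 12 libraries. pho-5 also lost it without WT replicate 3 (-0.82) and without upf-1KO replicate 3 (-0.96).

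Besides ena-1, other ion transport genes were read at different levels in the strains. The potassium transporter gene hak-1 (NCU00790) had 66, 92 and 42 reads in WT and 595, 573 and 536 in upf-1KO, an 8.32-fold increase (log2 fold change 3.06, standard error 0.15, adjusted p = 6.59e-11). The plasma membrane proton pump gene pma-1 (NCU01680) fell by 0.55 on the log2 scale, from 31542, 33579 and 29098 reads to 23781, 19942 and 22176. Of 23 tested pump and channel genes, 2 were called higher (8.70%, against 12.8% of all tested genes and 8.3% of those with a symbol). In this list 1 gene was called lower (4.35%, against 2.12%), and 14 did not pass the adjusted p.

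Cell wall genes were also mixed. Of 28 tested, 4 were called higher (14.3%, against 12.8% of all tested genes) and 3 lower (10.7%, against 2.12%), and the median was -0.17. gel-4 (NCU07253), a glucanosyltransferase gene that remodels wall glucan, had 1763, 1863 and 1572 reads in WT and 488, 450 and 488 in upf-1KO (log2 fold change -1.90, standard error 0.06, adjusted p = 8.80e-13). Another of this family, gel-1 (NCU01162), rose from 41, 37 and 29 reads to 104, 101 and 152. The wall protein gene acw-9 (NCU06185) was the most abundant gene called lower by FPKM in WT, where it had 24624, 30544 and 27512 reads against 13344, 11309 and 11553 in upf-1KO (log2 fold change -1.23, standard error 0.08).

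Clock and light genes changed by unequal amounts. The clock gene frq (NCU02265) had 1369, 1375 and 1224 reads in WT and 2104, 2091 and 2425 in upf-1KO (log2 fold change 0.70, standard error 0.06, adjusted p = 1.12e-07). The photoreceptor gene vvd (NCU03967) and wc-2 (NCU00902), a subunit of the light-sensing activator, had log2 fold changes of 0.63 and 0.57. The helicase gene frh (NCU03363), whose product binds FRQ, fell by 0.53 on the log2 scale. Of 22 tested clock and light genes, 3 were called higher (13.6%, close to the 12.8% of all tested genes), and these were ck-1a, the blue-light-induced gene bli-3 (NCU07267) and the opsin gene nop-1 (NCU10055). nop-1 had 3, 5 and 1 reads in WT and 31, 21 and 32 in upf-1KO. In the carotenoid pathway the phytoene desaturase gene al-1 (NCU00552) rose from 271, 356 and 214 reads to 672, 623 and 703 (log2 fold change 1.21), and the prenyl synthase gene al-3 (NCU01427) fell by 0.69 on the log2 scale.

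Conidiation genes changed in both directions. Of 9 tested, 4 were higher and 4 lower at any fold change (44.4% each, against 29.7% and 27.0% of all tested genes), with a median of 0.03. The overlapping list of conidia markers, which also holds cat-1, had a median of 0.62. con-13 and con-10 had too few reads to be tested. con-13 had 5, 1 and 1 reads in WT and 17, 9 and 27 in upf-1KO, and con-10 had 3, 7 and 2 and then 5, 11 and 20. con-8 (NCU09235) and con-6 (NCU08769) rose from counts of 2 to 14 in the WT libraries to counts of 31 to 48 in upf-1KO. acon-3 (NCU07617), a gene needed early in conidiation, had 204, 199 and 190 reads in WT and 75, 92 and 92 in upf-1KO (log2 fold change -1.23, standard error 0.14), a call that was lost in the fit of all 12 libraries. The hydrophobin gene eas (NCU08457), which coats conidia, had 103029, 86211 and 94964 reads in WT and 87432, 79076 and 82495 in upf-1KO, and here the strains overlapped (log2 fold change -0.23, adjusted p = 0.0168). That p was lost without WT replicate 3 (-0.19) and without upf-1KO replicate 3 (-0.20). Of the clock-controlled genes, ccg-1 (NCU03753) and ccg-14 (NCU07787) rose, with log2 fold changes of 1.60 and 1.46. WT replicate 2 stood apart in both. It had 2470 reads of ccg-1 against 1513 and 1292, and 2435 of ccg-14 against 6525 and 5578.

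Genes of RNA silencing and chromatin changed by less, with some exceptions. The Dicer genes dcl-1 (NCU08270) and dcl-2 (NCU06766), which cut double-stranded RNA, and the Argonaute gene qde-2 (NCU04730), whose product binds the small RNAs, had log2 fold changes of 0.80, 0.64 and 0.55. qip (NCU00076), an exonuclease gene that acts with QDE-2, fell by 0.92 on the log2 scale, from 282, 240 and 242 reads to 128, 131 and 156. None of the 6 tested genes of this list passed the 2-fold limit. Of 26 tested chromatin genes, 2 were called higher (7.69%, against 12.8% of all tested genes and 8.3% of those with a symbol). set-6 (NCU09495), a gene with a SET domain, the fold of histone methyltransferases, had 120, 58 and 116 reads in WT and 767, 748 and 831 in upf-1KO (log2 fold change 2.95, standard error 0.16, adjusted p = 2.44e-10). dim-9 (NCU01656) had a log2 fold change of 1.06. Of 9 histone genes, the linker histone gene hH1 (NCU06863) and 5 core histone genes were lower, and the variants hH4v, hH2Az and hH3v were higher, with log2 fold changes between -0.59 and 0.54. The shares were 66.7% lower and 33.3% higher, against 27.0% and 29.7% of all tested genes.

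The pheromone precursor gene of mating type a, mfa-1 (NCU16992), rose from 18, 13 and 16 reads to 93, 132 and 111 (log2 fold change 2.80, standard error 0.25, adjusted p = 1.26e-07). The gene ro-12 (NCU07196), named for the ropy hyphae of its mutants, went from 163, 140 and 132 reads to 1002, 975 and 1201 (log2 fold change 2.83, standard error 0.09), and it overlaps NCU07195. Of 14 tested genes of sexual development, 4 were called higher (28.6%, against 12.8% of all tested genes) and 1 lower (7.14%, against 2.12%). Of 72 tested kinase genes, 5 were called higher (6.94%, against 12.8% of all tested genes and 8.3% of those with a symbol) and none lower. The first of them, stk-20 (NCU02885), had 257, 254 and 258 reads in WT and 863, 813 and 945 in upf-1KO. Its log2 fold change was 1.73, it overlaps NCU02884, and it did not pass the adjusted p in the fit of all 12 libraries.

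Other lists are given by their counts, beside 27.0% lower and 29.7% higher at any fold change among all tested genes. Of 11 tested heat shock and chaperone genes, 6 were lower (54.5%) and 1 higher (9.09%) at any fold change and none was called, with hsp70-2 at -0.77 and hsp30 at 0.58. Of 5 genes of ergosterol and fatty acid synthesis, 4 were lower (80.0%, against 27.0% of all tested genes) and none was called, with a median of -0.52 and erg-1 at -0.91. Of 19 tested genes of the cytoskeleton and its motors, 9 were lower and 2 higher, where the tubulin gene tba-1 had a log2 fold change of -0.71 and ro-12 was the member called. Of 16 MAP kinase signalling genes, 8 were lower, 1 was higher and none was called. Nitrogen use genes numbered 11, of which 6 did not pass the adjusted p, and in the quinic acid cluster this held for 4 of 5. Among 34 tested DNA repair genes, 3 were called higher (8.82%, against 12.8% of all tested genes and 8.3% of those with a symbol) and 1, mus-51, lower. Their highest member, msh4, had a log2 fold change of 1.99, and the adjusted p of all 3 higher genes was lost in the fit of all 12 libraries.

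Some of the genes named above share map positions with another gene. These are bli-3, con-6, con-8, hsp30, tba-1, app, al-3, dcl-1, qip, pma-1, pho-4, cdt-1, hH2Az and bd besides those marked, and with the strand setting of the counting not given in the sources used here, reads of such pairs cannot be told apart.

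The same strains were also compared in the 6 libraries with 20 mM H2O2, which share no sample with the untreated ones. With H2O2, 7337 genes were tested, and 209 were called higher in upf-1KO (2.85%) and 82 lower (1.12%). The libraries with H2O2 were far more variable, with a biological coefficient of variation of 0.391 against 0.0701 without it, and these calls depended on single libraries. They were 483 and 245 without upf-1KO replicate 2, 20 and 5 without upf-1KO replicate 3, 12 and 5 without upf-1KO replicate 1, 2 and 1 without WT replicate 3 and 0 and 0 without WT replicate 2. In this last case edgeR gave 682 and 340 at an unadjusted p under 0.05 with the same 2-fold limit. Of the 985 genes called higher in untreated upf-1KO, 855 were tested with H2O2, and 754 of these had a positive log2 fold change there, with a median of 1.10 against 0.16 over all genes tested. The calls shared in the higher direction were 161, which is 16.3% of the untreated list and 77.0% of the list with H2O2. Of the 164 genes called lower, 138 were tested, 83 had a negative log2 fold change and the median was -0.32. The genes called lower in both conditions were 21, or 12.8% of the untreated list and 25.6% of the list with H2O2. Of the genes called lower without H2O2, 55 had a positive log2 fold change with it, and 2 were called higher there. Of the genes called higher without H2O2, 101 had a negative one and 0 were called lower. Whether the effect of the strain differed between the conditions was not tested.

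Single genes held to this in different ways. The formate dehydrogenase gene fdh had 111 to 177 normalized counts in WT with H2O2 and 448 to 617 in upf-1KO with H2O2, with a log2 fold change of 2.01. The sodium pump gene ena-1 had 3237 to 3373 in WT and 902 to 1171 in upf-1KO, with a log2 fold change of -1.66. In contrast, NCU00859 had 36.6 to 48.8 normalized counts in WT and 41.6 to 51.9 in upf-1KO with H2O2, so that the strains overlapped there at the level of the untreated knockout. The strains also overlapped with H2O2 in cat-3 and cpc-1, with log2 fold changes of 0.05 and -0.07. The glucose transporter gene hgt-1 had 33.0 to 96.4 in WT and 4.38, 164 and 8.67 in upf-1KO replicates 1, 2 and 3, where replicate 2 stood apart.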

How the data were processed

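The 6 untreated libraries, 3 per strain, were analysed from the count table that the authors deposited, which holds unnormalized read counts per gene for all 12 libraries of the series. The deposited FPKM values, which the authors scaled by transcript length and depth, served only to give levels per length. The submitters' processing notes name FastQC, HISAT2 2.2.1, featureCounts and Subread 2.0.1, and coordinates are those of the NC12 build. The strand setting of the counting is not given in the sources used here. 2 sequencing instruments are named, and which library ran on which is not given in the sources used here.

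Counts were filtered with filterByExpr, scaled by TMM factors and tested with edgeR 4.0.16 (R 4.3.3, quasi-likelihood F test, two-sided), with Benjamini-Hochberg adjustment over all 7720 genes tested. Genes were called at an adjusted p under 0.05 and a change of 1 or more on the log2 scale in either direction. The procedure was tested on simulated data. The 6 libraries with H2O2 were fitted in the same way on their own. Tables and figures were made with Python 3.11.15, numpy 2.4.6, pandas 2.3.3 and matplotlib 3.10.9.

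Of 10685 gene IDs, 10588 matched the RefSeq gene table and 1120 had a symbol. Gene descriptions came from the study's supplementary gene tables, which cover 1010 genes. Genes were placed on 37 lists by symbol. The members and lists were chosen with earlier results of these data known. The text names the genes the study names, the 15 largest increases and decreases whose mean normalized count reached 100 and whose strains did not overlap, up to 4 increases and 4 decreases of each list, genes read in 1 strain only, neighbours of upf-1, strain genes and runs of at least 4 neighbouring called genes. aod-3, cys-14, cbh-1, gh18-7, frq, vvd, wc-2, dmm-2, nmt-1 and NCU06110 were named after their values were seen. Total counts of 6727198 to 7703271 per library set the precision, and bounds against a floor of 3 counts cover counting error only. Alternatives were DESeq2 1.42.0, other scaling factors, other filters, the unadjusted p, a test against a 2-fold change, a fit of all 12 libraries, a replicate block and leaving out each library.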

Additional observations from a re-analysis of the deposited data

Results flagged for a closer look

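The genes the study names and the largest increases and decreases were looked at in both conditions. In 5 of them every library of upf-1KO lay on one side of every WT library without H2O2 and on the other side with it. These 5 are not a count over all tested genes, and in each the difference between the conditions was not tested. NCU09272 had a log2 fold change of -4.29 without H2O2 and 1.08 with it (edgeR adjusted p = 0.118 with H2O2). NCU09734 had -4.19 without and 1.54 with H2O2 (adjusted p = 0.0821). NCU05858 had -2.79 without and 1.95 with H2O2 (adjusted p = 0.0357). upf-2 had 0.50 without and -0.58 with H2O2 (adjusted p = 0.192). NCU08291, the neighbour of mus-51, had -0.20 without and 0.74 with H2O2 (adjusted p = 0.0888).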

How the results depend on the processing

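In untreated mycelium the test against a 2-fold change gave 552 genes higher and 78 lower in upf-1KO, and the fit of all 12 libraries gave 821 and 371 at any fold change. Leaving out each library in turn gave 978 to 1021 genes called higher, 162 to 187 called lower, 2055 to 2252 higher and 1784 to 2188 lower at any fold change, and a log2 fold change of -1.68 to -1.60 for upf-1. Calls were 80.8% to 88.6% higher over the scalings and fits tried, while the median of all genes moved from -0.01 to 0.07 with library totals alone and to -0.13 with all 12 libraries.

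With H2O2 the counts were 440 and 341 with DESeq2, 1323 and 40 with library totals alone, 100 and 42 with at least 10 counts in each library, 855 and 402 with the unadjusted p, 20 and 5 against a 2-fold change and 870 and 414 with all 12 libraries. They ranged from 0 to 483 higher and from 0 to 245 lower when each library was left out. The cause was not tested.

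Same-numbered libraries of the strains did not deviate together (correlations of -0.0925, 0.00586 and -0.00219, against -0.0585 to 0.0686 for different numbers). The counts thus gave no sign of pairing by number. Whether same-numbered cultures were handled together cannot be told from these values. The replicate block gave 979 higher and 159 lower genes, 2198 and 1918 at any fold change, -1.63 for upf-1, and 60 and 13 with H2O2. Of 306 genes named by rule, none changed sign past the threshold, and 254 of 3947 comparisons lost the adjusted p, 136 of them in the fit of all 12 libraries.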

Other observations

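The most abundant transcripts also changed order, and these genes were singled out after their values were seen. NCU06110 (chromosome VII, 1764461 to 1767138), described as a thiazole biosynthetic enzyme, which makes a precursor of the vitamin thiamine, had 119073, 95277 and 117503 reads in WT and 236045, 218023 and 234578 in upf-1KO. Its share of all reads was 1.24% to 1.69% in WT and 3.14% to 3.24% in upf-1KO, and its log2 fold change was 1.01 (standard error 0.09, edgeR adjusted p = 1.23e-07), right at the 2-fold limit. It overlaps NCU06111. nmt-1 (NCU09345, chromosome II, 4177546 to 4180504), which acts in the pyrimidine branch of thiamine synthesis, had 114200, 90359 and 105090 reads in WT and 184252, 178401 and 196793 in upf-1KO (log2 fold change 0.81, standard error 0.09, adjusted p = 7.16e-07). The strains did not overlap for either gene, as in 4758 of the 7720 tested genes, and WT replicate 2 was the lowest library for both. tef-1 went from 2.19% to 2.31% of all reads in WT to 1.47% to 1.62% in upf-1KO.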
